A study of Mus musculus with 5 samples.

Results

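Mature migratory-type dendritic cells (DCs) were examined in single cell RNA sequencing of mouse spleen. They were chosen by UMIs (unique molecular identifiers, each standing for 1 captured RNA molecule): at least 1 UMI of Fscn1, at least 5 UMIs over Fscn1, Ccl22, Il4i1, Cacnb3 and Ccr7, and at least 5 UMIs of the MHC class II gene H2-Ab1. At most 1 UMI of Cd3d, Cd3e and Cd3g and at most 2 UMIs of Cd79a, Cd79b and Ms4a1 were allowed, which keeps out T and B cells. Of 16271 cells that held 1000 or more UMIs and 500 or more genes with a mitochondrial share of up to 10%, 215 met this rule and are called mature DC-like cells or mature cells here. They were set against 2813 other DCs, gated on their own markers as 1442 cDC2-like, 836 cDC1-like and 535 plasmacytoid (pDC-like) cells. The rule used the measured values of the 5 genes in these same cells, so every difference from the other DCs is a description and carries no test.

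The mice were C57/BL6, infused intravenously 48 h before their spleens were taken. The 4 infused groups received splenic cells, which were live and allogeneic (from Balbc), live and isogeneic (from B6), apoptotic and allogeneic (from Balbc) or apoptotic and isogeneic (from B6), and the control group received saline. Each group was 1 library, so no test between groups was possible, and intervals given here cover counting error only. CD45+ cells and DCs were enriched in separate magnetic steps from collagenase and DNAse digests and then mixed 1:1 (labels' protocols), so that shares of DCs among all cells are set partly by the enrichment. The sources used here do not give the number of mice per library, their age or their sex. The counts do not separate host from infused cells. The libraries held 12742889 to 32641733 UMIs over all barcodes, and pairs of libraries shared 0 to 8 barcodes of filtered cells, none of them of a mature cell.

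DCs sample antigen in tissues and, on maturation, switch to a programme that carries them to T cell zones. In this state Ccr7, a receptor for the chemokines Ccl19 and Ccl21, guides movement, and fascin (Fscn1) bundles actin in their long processes. NF-kappaB signalling through RelB and p100/p52, costimulatory ligands, interleukin-4 induced gene 1 (Il4i1, an amino acid oxidase) and inhibitory ligands such as PD-L1 (Cd274) are known features of such cells, which have been described in lymphoid organs and in tumours, also in the absence of infection. In the spleen they can derive from cDC1, which excel at cross-presentation to CD8 T cells, or from cDC2, which mainly prime CD4 T cells.

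Upstream sequences are shown for genes on which the results turn: Fscn1 and Ccl22, which the rule used, Nfkbia, an NF-kappaB target that was higher in mature cells, and Isg15, an interferon target that differed between libraries. They are from RefSeq on GRCm38.p6, read 5′ to 3′ along the gene's strand, and run to at most 250 bases before the RefSeq start. For Fscn1 and Ccl22 the last 12 and 94 of those bases lie inside the gene as GENCODE has it and are left out. The windows are chr5:142960105-142960342 on the plus strand, chr8:94745434-94745589 on the plus strand, chr12:55492648-55492897 on the minus strand and chr4:156200819-156201068 on the minus strand. Capitals mark matches on either strand. In Fscn1 and Ccl22 these are to a broad form of the NF-kappaB site, GGG and CC with any 5 bases between them. In Nfkbia they are to its narrower form, GGGAA and CC with any 3 bases between them, which the broad form includes. In Isg15 they are to the interferon-stimulated response element, GAAA and GAAA with any 2 bases between them.
Fscn1: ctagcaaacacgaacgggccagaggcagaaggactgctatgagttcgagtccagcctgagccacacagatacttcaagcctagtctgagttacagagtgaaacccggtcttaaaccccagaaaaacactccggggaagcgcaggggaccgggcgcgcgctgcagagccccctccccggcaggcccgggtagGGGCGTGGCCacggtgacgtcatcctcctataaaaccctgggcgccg
Ccl22: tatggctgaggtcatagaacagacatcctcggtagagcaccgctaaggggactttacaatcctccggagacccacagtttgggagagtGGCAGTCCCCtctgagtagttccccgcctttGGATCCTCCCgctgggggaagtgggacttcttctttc
Nfkbia: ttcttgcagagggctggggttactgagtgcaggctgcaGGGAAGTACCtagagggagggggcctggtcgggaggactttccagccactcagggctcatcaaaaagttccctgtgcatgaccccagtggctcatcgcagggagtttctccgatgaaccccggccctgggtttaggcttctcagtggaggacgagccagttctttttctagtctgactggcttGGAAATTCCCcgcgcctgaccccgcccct
Isg15: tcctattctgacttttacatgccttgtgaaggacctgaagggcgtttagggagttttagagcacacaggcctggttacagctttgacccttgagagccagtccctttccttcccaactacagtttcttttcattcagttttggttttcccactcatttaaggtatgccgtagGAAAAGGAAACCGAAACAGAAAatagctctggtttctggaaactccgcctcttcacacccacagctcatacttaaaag
The match in Fscn1 begins 59 bases before the RefSeq start, those in Ccl22 162 and 131 bases before it and those in Nfkbia 212 and 29 bases before it. The 3 matches in Isg15 begin 78, 72 and 66 bases before the start and overlap. Over 32817 promoters in 250-base windows, the broad form was in 45.8%, the narrow form in 4.95% and the interferon element in 2.97%, counting both strands. Of 18 NF-kappaB pathway genes in the table, 14 held the broad form (77.8%) and 4 the narrow form (22.2%), Nfkb2, Rel, Nfkbia and Tnip1. Of 15 matched mature DC marker genes, 7 held the broad form (46.7%) and 1, Tbc1d4, the narrow form. Of 31 matched type I interferon genes, 15 held the interferon element (48.4%). A match is a description of these letters and not evidence of binding.

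The label was checked on markers and by clustering. The rule used 5 of the 20 mature DC markers. Over the other 15 the summed level in mature cells was 6489 CPM (UMIs of the genes scaled to a common total of UMIs per library) in the live allogeneic, 10099.5 in the live isogeneic, 13110.5 in the apoptotic allogeneic, 12313 in the apoptotic isogeneic and 14447 in the saline library, against 1695 to 2270.4 CPM in cDC2-like and 652 to 909 CPM in cDC1-like cells. In unsupervised clustering, 175 of the 215 cells (81.4%) fell in the cluster led by Fscn1, Anxa3, Socs2, Cacnb3, Gadd45b and Tspan3. The other 40 were 20 cells in a cDC2 cluster, 11 in a cluster led by Cd209a and monocyte genes, 5 in a cluster of cycling cells, 2 among red pulp macrophages, 1 among pDCs and 1 among cDC1. By library, 16 of 27 live allogeneic, 33 of 46 live isogeneic, 40 of 47 apoptotic allogeneic, 29 of 34 apoptotic isogeneic and 57 of 61 saline mature cells were in the mature cluster. The cluster was larger than the rule's set: of its 418 cells 41.9% met the rule, from 31.5% in the apoptotic isogeneic, 33.3% in the live isogeneic, 47.1% in the saline and 48.2% in the apoptotic allogeneic to 69.6% in the live allogeneic library. Scrublet called no mature cell a doublet, but it called 0.830% of all cells and under 0.5% in each library other than the apoptotic isogeneic one, so doublets were not removed.

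A total of 11 mature cells carried more UMIs of monocyte and red pulp macrophage markers than of mature DC markers. They numbered 4 in the live allogeneic library, where they held 36.4% of the mature cells' UMIs, 3 in the live isogeneic (10.6%), 1 in the apoptotic allogeneic (3.61%), 2 in the apoptotic isogeneic (9.70%) and 1 in the saline library (1.61%). The 4 live allogeneic cells had 29884 to 37419 UMIs each, against a median of 9586 over the mature cells of that library. With them the monocyte markers summed to 7217 CPM in the live allogeneic mature cells and without them to 692 CPM. The red pulp macrophage markers summed to 1879.7 CPM with them and to 45.3 CPM without them. Without such cells, the mature DC markers reached 13097 CPM in the live allogeneic library. Results of that library are therefore given with and without these 4 cells, called myeloid-led here. The cells were picked on these same markers, so changes in the marker sums without them follow from the choice. The mature DC markers include NF-kappaB and migration genes, among them Relb, Traf1, Fscn1 and Ccr7. Changes in those lists without the myeloid-led cells are thus partly set by the choice as well. In 1 apoptotic allogeneic mature cell 1676 of 14689 UMIs (11.4%) were of erythroid markers, and in 1 live isogeneic mature cell 192 of 7772.

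**Figure D1:**
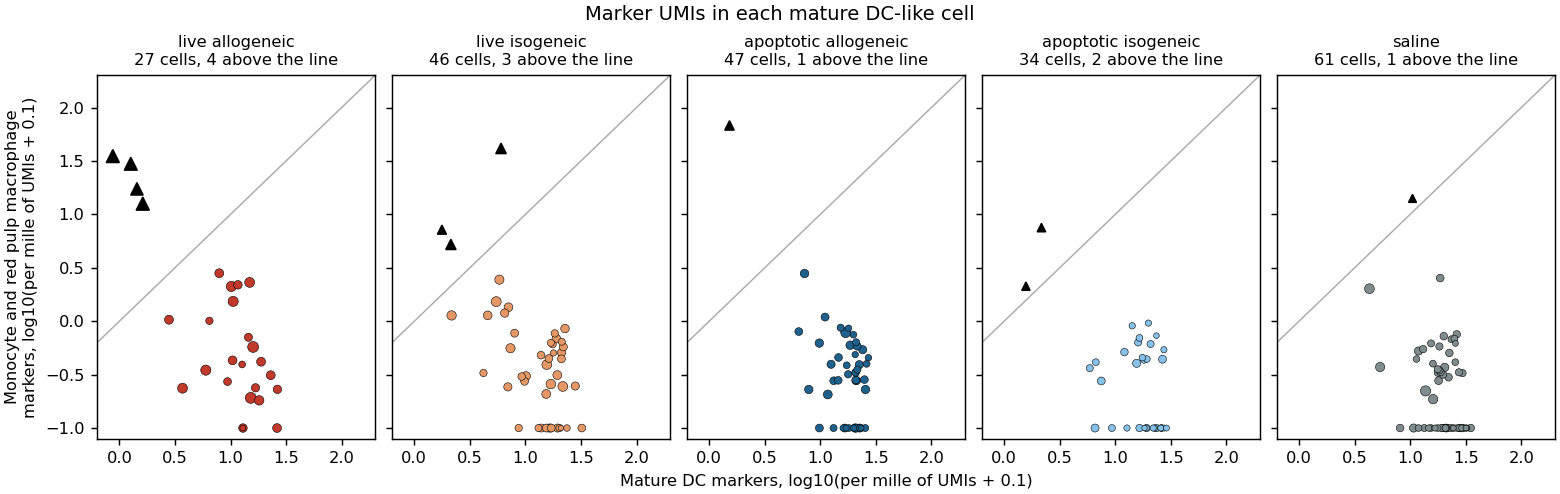
Each point is 1 mature DC-like cell, with the share of its UMIs from mature DC markers (x axis) and from monocyte and red pulp macrophage markers (y axis), both as log10(per mille of UMIs + 0.1), and with point area growing with the cell's UMIs. Black triangles are the 11 cells above the line of equal shares, of which 4 are in the live allogeneic and 1 in the saline library.

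The edge of the rule separated cells gradually. The 12 cells with a sum of exactly 5 UMIs over the 5 genes had 9.86 per mille of their UMIs from the other mature DC markers, and the 18 cells that met all else but had a sum of 4 had 4.64 per mille. Over all mature cells this share was 14.0 per mille, and over the other DCs 0.992 per mille. The sum itself had a median of 13 UMIs (lowest 5, highest 153). All mature cells had Fscn1 by the rule, 96.7% had a UMI of Il4i1, 81.9% of Ccr7, 58.1% of Cacnb3 and 17.2% of Ccl22, at a median depth of 4834 UMIs per cell.

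Mature cells made up a small share of the DCs in every library. They were 11.8% (7.92 to 16.7%) of the DCs in the live allogeneic library (27 of 229), 6.80% (5.02 to 8.97%) in the live isogeneic (46 of 676), 7.65% (5.68 to 10.0%) in the apoptotic allogeneic (47 of 614), 4.94% (3.45 to 6.84%) in the apoptotic isogeneic (34 of 688) and 7.43% (5.73 to 9.44%) in the saline library (61 of 821), with exact 95% Clopper-Pearson intervals. The live allogeneic share was the highest and the apoptotic isogeneic share the lowest, and the intervals of neighbouring libraries in this order overlapped. This order depends on the rule. All cells of the mature cluster, among the cells of DC clusters, were 23 of 228 (10.1%, 6.50 to 14.8%) in the live allogeneic, 99 of 801 (12.4%) in the live isogeneic, 83 of 647 (12.8%) in the apoptotic allogeneic, 92 of 791 (11.6%) in the apoptotic isogeneic and 121 of 888 (13.6%, 11.4 to 16.1%) in the saline library. The live allogeneic share was then the lowest, and the intervals of all 5 libraries overlapped. Among all filtered cells, the shares were 2.28% in the live allogeneic, 1.25 in the live isogeneic, 2.22 in the apoptotic allogeneic, 0.533 in the apoptotic isogeneic and 2.10 in the saline library. Depth differed as well: the median UMIs per mature cell were 9586 in the live allogeneic, 6462 in the live isogeneic, 5594 in the apoptotic allogeneic, 2918 in the apoptotic isogeneic and 4055 in the saline library, and the rule counts UMIs. Cells with at least 2000 UMIs were therefore also thinned to that number. Shallower cells were left out, 75 of 1186 filtered cells in the live allogeneic, 476 of 3685 in the live isogeneic, 179 of 2118 in the apoptotic allogeneic, 2596 of 6380 in the apoptotic isogeneic and 514 of 2902 in the saline library. In the thinned cells the shares of DCs were 6.83% (3.46 to 11.9%) in the live allogeneic, 3.55% in the live isogeneic, 6.58% in the apoptotic allogeneic, 3.11% in the apoptotic isogeneic and 5.50% in the saline library. In these cells the live allogeneic, apoptotic allogeneic and saline shares lay within each other's intervals, and the live isogeneic and apoptotic isogeneic shares were lower, with intervals that overlapped those of the others (2.04 to 5.70% and 1.79 to 5.0%).

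**Figure D2:**
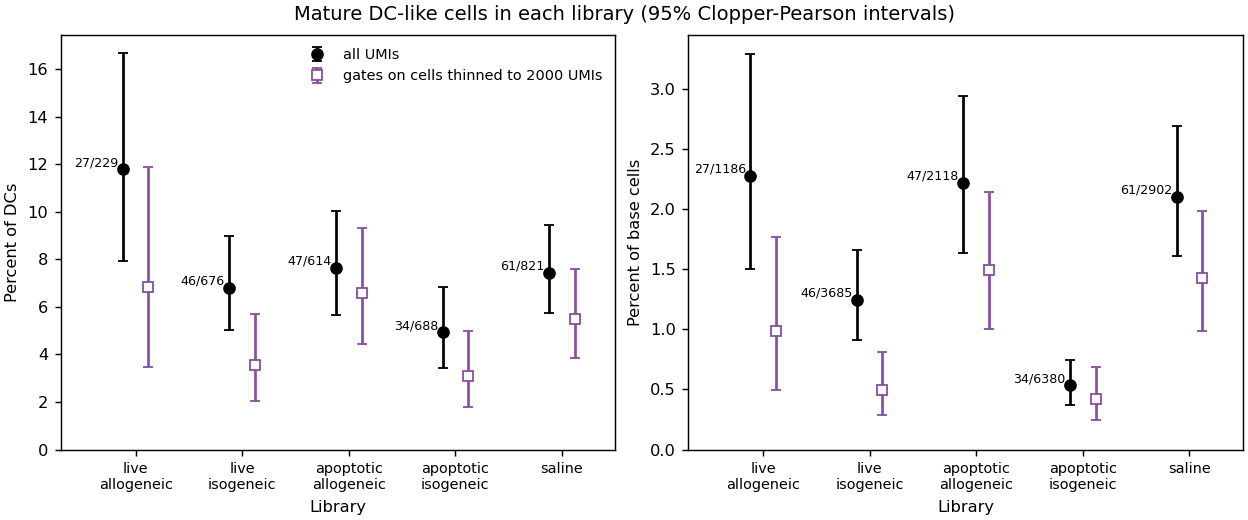
Mature DC-like cells as a percent of DCs (left) and of all filtered cells (right) in each library, with all UMIs (black circles) and with the gates applied to cells thinned to 2000 UMIs (open squares). Bars are 95% Clopper-Pearson intervals, and the labels give cells over their denominator, from 27 of 229 in the live allogeneic to 61 of 821 in the saline library.

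Apart from the genes of the rule, mature cells stood apart from the other DCs by genes of widely different roles, led by Socs2, Cd63 and Fabp5. Of 10678 genes tested, 241 (2.26%) were at least 2-fold higher and 203 (1.9%) at least 2-fold lower than in the other DCs of the same library in all 5 libraries, on log2(CPM + 10), where the median gene was at -0.22. The largest median ratio outside the rule was that of Socs2, a suppressor of cytokine signalling (ENSMUSG00000020027, chromosome 10, 95385362 to 95417180, GRCm38). Socs2 was at 362 CPM in the live allogeneic, 324 in the live isogeneic, 454 in the apoptotic allogeneic, 586 in the apoptotic isogeneic and 548 in the saline library of mature cells, against 0.381 to 5.69 CPM in the other DCs (median log2 ratio 5.15). It was thus present in the mature cells of all 5 libraries and nearly absent from the others, and 66.5% of mature cells had a UMI of it. Cd63, a tetraspanin of late endosomes, was at 729 CPM in the live allogeneic, 443 in the live isogeneic, 540.4 in the apoptotic allogeneic, 716 in the apoptotic isogeneic and 613 in the saline library, against 1.94 to 13.3 CPM in the other DCs (5.02). The fatty acid-binding protein gene Fabp5 was at 3455 CPM in the live allogeneic, 1722 in the live isogeneic, 1508 in the apoptotic allogeneic, 1526 in the apoptotic isogeneic and 1956 in the saline library, against 41.6 to 76.6 CPM in the other DCs (4.88). Fabp5 was highest in the live allogeneic library, where 1 myeloid-led cell held 23.2% of its UMIs, and it stayed so without the myeloid-led cells (3959 CPM). Gadd45b, a gene of the response to stress and NF-kappaB, was at 475 CPM in the live allogeneic, 681 in the live isogeneic, 1351 in the apoptotic allogeneic, 1129.6 in the apoptotic isogeneic and 1252 in the saline library, against 34.2 to 50.6 CPM in the other DCs (4.38).

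The other genes among the 15 with the largest ratios spanned several roles. Anxa3, a calcium-dependent phospholipid-binding annexin, was at 407 to 740.3 CPM over the 5 libraries against 5.22 to 14.3 CPM in the other DCs. The tetraspanin gene Tspan3 was at 218 to 878 against 26.0 to 30.1 CPM, and Tmem123, which encodes the membrane protein porimin, at 705 to 2003 against 64.9 to 90.3 CPM. H2-M2, a non-classical MHC class I gene, was at 613 to 933 against 19.8 to 51.2 CPM, but with a UMI in 47.4% of mature cells only. Marcksl1, an actin-regulating relative of MARCKS, was at 589.9 to 1063 against 37.3 to 53.9 CPM. Tnfrsf4 (OX40), a costimulatory receptor best known from activated T cells, was at 86.5 to 221 against 0.696 to 4.22 CPM. The adenosine receptor gene Adora2a was at 62.9 to 259 against 2.72 to 4.49 CPM. The remaining ones were Ankrd33b, the skin-type protease gene Asprv1, the sodium-bicarbonate transporter gene Slc4a8 and Crispld2, with median log2 ratios of 4.31, 4.16, 4.05 and 4.01.

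Genes with the lowest ratios were mostly those of the other DC types, some of which had served to gate them. Ly6c2, a surface protein gene of monocytes and pDCs, was at 0 to 29.7 CPM in mature cells against 275 to 659 CPM in the other DCs, and Ppt1, a lysosomal thioesterase gene high in cDC1, at 18.1 to 184 against 801 to 1024 CPM. Naaa, Rab7b, Xcr1, Cadm1, Ly6a, Ifi205 and P2ry14 were also among the lowest, with median log2 ratios from -4.00 to -3.27. Against cDC2-like cells alone, 5 of these genes, Xcr1, Cadm1, Ly6a, Ifi205 and P2ry14, had ratios between 0.07 and 0.27, that is, slightly above 0.

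**Figure D3:**
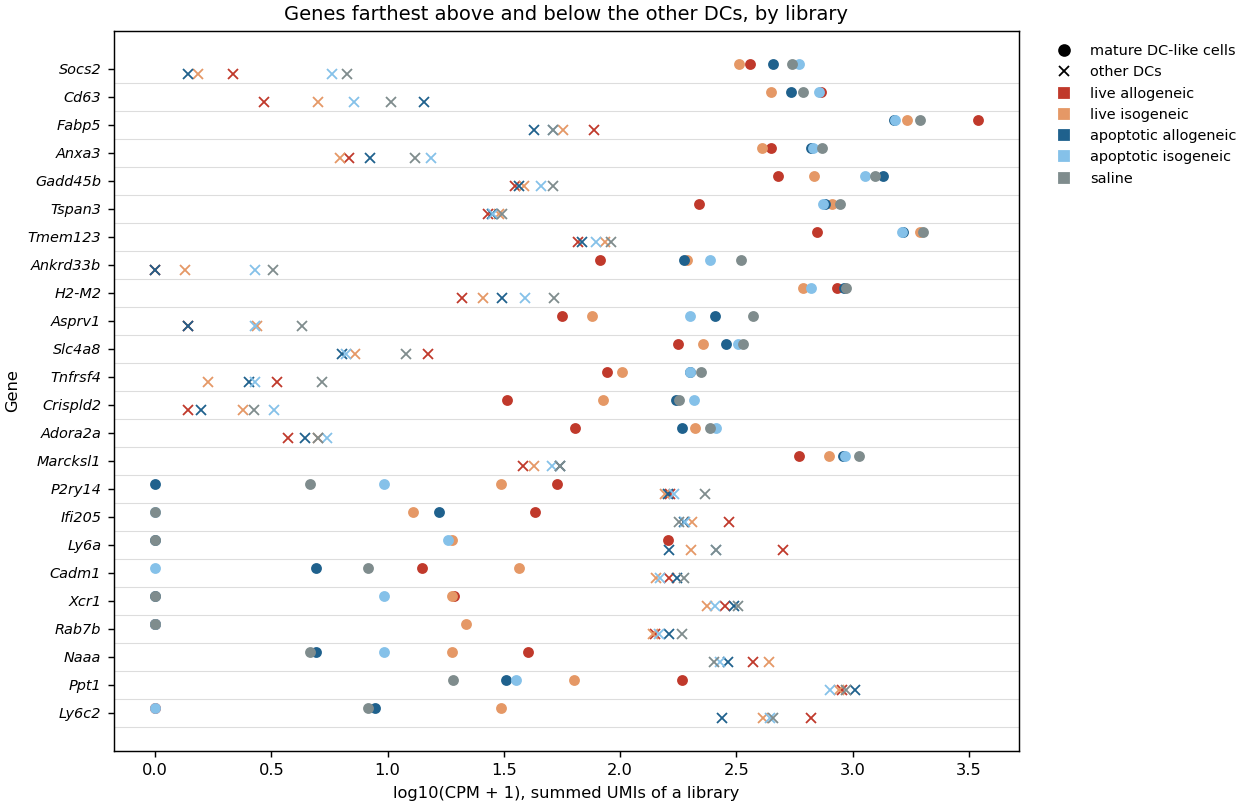
Levels of the 15 genes farthest above and 9 of the 10 farthest below the other DCs, as log10(CPM + 1) of the UMIs summed per library, with mature DC-like cells as circles, other DCs as crosses and 1 colour per library. For Socs2 the circles lie at 324.2 to 586.3 CPM and the crosses at 0.381 to 5.69 CPM.

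Most migration and cytoskeleton genes were higher in mature cells. Of 20 measured, 14 were at least 2-fold higher in all libraries and none lower (median log2 ratio 2.09, against 2.26% of all genes higher and a median of -0.22); Fscn1, Ccr7 and Cacnb3 among the 14 were chosen by the rule, and without them 11 of 17 were higher (median 1.92). Fscn1 (ENSMUSG00000029581, chromosome 5, 142960343 to 142973185) was at 844 CPM in the live allogeneic, 1091 in the live isogeneic, 1120.0 in the apoptotic allogeneic, 1207 in the apoptotic isogeneic and 1132 in the saline library, against 12.3 to 21.1 CPM in cDC2-like cells. Ccr7 (ENSMUSG00000037944, chromosome 11, 99144196 to 99155077) was at 475 CPM in the live allogeneic, 657 in the live isogeneic, 901 in the apoptotic allogeneic, 785 in the apoptotic isogeneic and 896 in the saline library, against 15.3 to 46.4 CPM in cDC2-like, 1.30 to 7.61 CPM in cDC1-like and 66.3 to 119 CPM in B cells, which also use this receptor. For both, the live allogeneic library was the lowest, and without its 4 myeloid-led cells it had 1277 CPM of Fscn1 and 746 CPM of Ccr7. Of the genes the rule did not use, Tbc1d4, a GTPase-activating protein of vesicle traffic, was at 1327 CPM in the live allogeneic, 2629 in the live isogeneic, 3074 in the apoptotic allogeneic, 3311 in the apoptotic isogeneic and 4061 in the saline library, against 738 to 1108 CPM in cDC2-like cells. Swap70, a Rac-binding protein of the actin skeleton, was at 357 to 719 CPM against 57.0 to 88.9 CPM, and the myosin gene Myo1g at 286 to 425 against 111 to 119 CPM. Marcks was at 959.5 to 1872 against 467 to 707 CPM and the adhesion molecule gene Icam1 at 275 to 548 against 85.5 to 152 CPM in cDC2-like cells. Gpr183, an oxysterol receptor that positions splenic DCs, was at 439.8 to 584 CPM against 128 to 165 CPM in cDC2-like and 3.38 to 20.2 CPM in cDC1-like cells. The levels of mature and cDC2-like cells did not overlap over the libraries for any of these genes. Actg1, which encodes an actin, and Lsp1, which encodes an actin-binding protein, both abundant, did not reach 2-fold in all libraries, at 2624 to 3377 CPM against 1615 to 2289.8 CPM and 1597 to 2467 against 1134 to 1386 CPM.

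Among chemokines, 3 of 9 measured genes were higher in all libraries, where 2.26% of all genes were: Ccl22, Ccl5 and Cxcl16. Ccl5, which attracts T cells and monocytes, was at 1895 CPM in the live allogeneic, 2653 in the live isogeneic, 2729 in the apoptotic allogeneic, 2492 in the apoptotic isogeneic and 3713 in the saline library, against 139 to 955 CPM in cDC2-like and 0.962 to 45.8 CPM in cDC1-like cells. Ccl22, a ligand of Ccr4 on regulatory and helper T cells and a gene of the rule, was at 52.4 CPM in the live allogeneic, 104 in the live isogeneic, 172 in the apoptotic allogeneic, 60.4 in the apoptotic isogeneic and 239.5 in the saline library, with a UMI in 37 of the 215 cells. The ratio for Ccl22 thus rests on few cells, and in each library 1 cell held 36.4 to 71.4% of its UMIs. Ccl17, the other Ccr4 ligand, had 6 UMIs in 3 cells, and Ccl6 was at 8.92 to 62.9 CPM against 50.2 to 80.4 CPM in cDC2-like cells. Cxcl16, the membrane-bound ligand of Cxcr6, was at 385 to 627 CPM against 14.7 to 34.9 CPM in cDC2-like cells. Of 8 cytokine genes measured, Il1rn, which encodes the interleukin-1 receptor antagonist, was higher (14.5 to 57.7 against 3.22 to 9.83 CPM in cDC2-like cells) and Tgfb1 lower (80.3 to 94.8 against 245 to 315 CPM). Il18 was at 8.62 to 35.2 against 21.1 to 31.0 CPM and Ebi3, a chain of interleukins 27 and 35, at 25.4 to 51.7 against 23.6 to 38.7 CPM. Il1b was at 34.5 to 116 CPM, against 90.5 to 143 CPM in cDC2-like cells, and Il6 had 2 UMIs in all.

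Part of the costimulatory genes were higher in mature cells, where 2.26% of all genes were higher in all libraries. Of 8 costimulatory genes measured, 4 were higher in all libraries (median 1.21): Cd40, Icosl, Cd83 and Il15ra. Icosl, the ligand of ICOS, was at 236 CPM in the live allogeneic, 369 in the live isogeneic, 709 in the apoptotic allogeneic, 595 in the apoptotic isogeneic and 649.6 in the saline library, against 94.4 to 137 CPM in cDC2-like and 20.4 to 40.4 CPM in cDC1-like cells. Cd83, a maturation marker that stabilises surface MHC class II, was at 233 CPM in the live allogeneic, 625 in the live isogeneic, 779 in the apoptotic allogeneic, 578 in the apoptotic isogeneic and 769 in the saline library, against 51.1 to 99.5 CPM in cDC2-like cells. Cd40, the receptor for T cell help, was at 131 CPM in the live allogeneic, 65.4 in the live isogeneic, 121 in the apoptotic allogeneic, 189.7 in the apoptotic isogeneic and 109 in the saline library, against 35.0 to 61.0 CPM in cDC2-like cells. The ligands of CD28 were not among them: Cd80 was at 14.9 to 69.0 CPM against 22.5 to 27.2 CPM in cDC2-like cells and Cd86 at 43.1 to 116 against 54.2 to 75.7 CPM. Cd48, a ligand of CD244, was at 25.4 to 97.0 against 70.6 to 144 CPM. Of 12 regulatory and inhibitory genes measured, 5 were higher (median 1.29): Cd274, Cd200, Fas, Socs2 and the rule gene Il4i1 (4 of 11 without it, median 1.07). Cd274, which encodes PD-L1, was at 155 CPM in the live allogeneic, 131 in the live isogeneic, 125 in the apoptotic allogeneic, 121 in the apoptotic isogeneic and 134 in the saline library; cDC2-like cells had 67.1 to 96.3 CPM and cDC1-like cells 7.70 to 12.7 CPM, so that cDC2-like cells lay closer to mature cells than cDC1-like cells did. Pdcd1lg2 (PD-L2) was at 3.92 to 18.1 CPM against 15.2 to 19.3 CPM in cDC2-like cells. Cd200, the ligand of an inhibitory receptor on myeloid cells, was at 50.8 to 164 against 1.29 to 2.39 CPM and the death receptor gene Fas at 47.2 to 72.6 against 0.479 to 1.97 CPM. Ido1, an immunosuppressive enzyme of tryptophan breakdown, had 1 UMI in all, and Vsir (VISTA) was at 8.62 to 47.0 CPM against 54.1 to 93.1 CPM. Of 6 genes of the IL-4 and T helper 2 axis the rule used Il4i1 and Ccl22; of the other 4, Tnfrsf4 was higher (median 1.30), Il4ra was at 25.9 to 94.0 CPM against 27.5 to 37.6 CPM and Stat6 at 47.2 to 112 against 31.5 to 61.3 CPM in cDC2-like cells.

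NF-kappaB pathway genes were the next group that stood high, where 2.26% of all genes were higher in all libraries. Of 21 measured, 9 were higher in all libraries and none lower (median 1.46): Nfkb2, Relb, Nfkbia, Tnfaip3, Traf1, Birc2, Bcl3, Tank and Cflar. Relb, the transactivating subunit of the non-canonical pathway (ENSMUSG00000002983, chromosome 7, 19606217 to 19629438), was at 572 CPM in the live allogeneic, 1091 in the live isogeneic, 1371 in the apoptotic allogeneic, 854 in the apoptotic isogeneic and 1114 in the saline library, against 198 to 300.5 CPM in cDC2-like and 20.2 to 35.4 CPM in cDC1-like cells. Nfkb2, which encodes its partner p100/p52, was at 147 to 267 CPM against 77.7 to 119.7 CPM in cDC2-like cells. By contrast Nfkb1, which encodes p105/p50 of the canonical pathway, was at 125 to 172 CPM in mature cells, lower than the 279 to 409.5 CPM of cDC2-like cells in every library. Rela was at 57.7 to 102 against 37.4 to 68.8 CPM and Rel at 246 to 642 against 237 to 365 CPM. Of the inhibitors, Nfkbia (IkBalpha), whose promoter sequence is given with those of Fscn1 and Ccl22, was at 613 to 803 CPM against 210.4 to 339 CPM, and Tnfaip3 (A20) at 89.1 to 175 against 10.3 to 27.6 CPM. The adaptor gene Traf1 was at 792 CPM in the live allogeneic, 824 in the live isogeneic, 1739 in the apoptotic allogeneic, 1406 in the apoptotic isogeneic and 1887 in the saline library, against 226 to 367 CPM in cDC2-like cells. Of 15 survival and death genes, 6 were higher (median 0.87), among them Bcl2l11, Bcl2a1b, Bcl2a1d, Gadd45b and Serpinb9. Bcl2a1b, an anti-apoptotic BCL2 relative, was at 1026 to 1476 CPM against 468 to 596 CPM in cDC2-like cells; its reads may be split with those of the near-identical Bcl2a1d. Serpinb9, an inhibitor of granzyme B, was at 103 to 214 against 6.22 to 23.9 CPM, and the pro-apoptotic Bcl2l11 (Bim) at 56.5 to 121 against 9.83 to 26.6 CPM. The anti-apoptotic Mcl1 was at 383 to 638 against 317 to 429 CPM and Pmaip1 (Noxa) at 123 to 345 against 125 to 315 CPM.

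Of 27 DC transcription factors measured, Relb, Etv3 and Nr4a3 were higher (11.1%, against 2.26% of all genes) and Irf8 and Tcf4 lower (7.41%, against 1.9%) in all libraries (median 0.23). Etv3, an ETS-family repressor, was at 501 CPM in the live allogeneic, 952 in the live isogeneic, 1234 in the apoptotic allogeneic, 1129.6 in the apoptotic isogeneic and 1502 in the saline library, against 96.4 to 166 CPM in cDC2-like and 57.7 to 123 CPM in cDC1-like cells. Irf8, the factor of cDC1 and pDCs, was at 330.3 CPM in the live allogeneic, 205 in the live isogeneic, 176 in the apoptotic allogeneic, 155 in the apoptotic isogeneic and 72.6 in the saline library, against 1917 to 2253 CPM in cDC1-like and 19.6 to 53.5 CPM in cDC2-like cells. Mature cells thus lay between these types for Irf8, above cDC2-like cells in every library, and the live allogeneic level was 218 CPM without the myeloid-led cells. Zeb2, which is needed for pDCs and cDC2 and is low in cDC1, was at 288 to 533 CPM against 203 to 311 CPM in cDC2-like and 6.24 to 17.3 CPM in cDC1-like cells. Batf3 was at 241 to 363 CPM, as against 229 to 314 CPM in cDC1-like and 149 to 199.9 CPM in cDC2-like cells, Id2 at 514 to 1248 against 755 to 1048 CPM in cDC1-like and 257 to 353 CPM in cDC2-like cells, Spi1 (PU.1) at 306 to 442 against 417 to 533 CPM in cDC2-like cells and Irf4 at 19.6 to 43.5 against 27.5 to 41.2 CPM in cDC2-like cells.

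Some antigen presentation genes differed, and the uptake receptors that differed were lower. Of all genes, 2.26% were higher and 1.9% lower in all libraries. Of 15 MHC class II genes, H2-Eb2 and Ifi30, a lysosomal thiol reductase, were higher and March1, a ubiquitin ligase that drives class II turnover, lower in all libraries (median 0.11). March1 was at 62.9 CPM in the live allogeneic, 29.7 in the live isogeneic, 27.4 in the apoptotic allogeneic, 25.9 in the apoptotic isogeneic and 18.1 in the saline library, against 167 to 198 CPM in cDC2-like and 228 to 285 CPM in cDC1-like cells. H2-Aa was at 6871 to 8166 CPM, close to the 6385 to 7991 CPM of cDC2-like and 6488 to 7151 CPM of cDC1-like cells; H2-Ab1, which the rule used, was at 5323 to 5917 CPM, Cd74, the invariant chain, at 14917 to 19481 against 14587 to 18251 CPM in cDC2-like cells and H2-Eb1 at 5121 to 5995 against 4593 to 5579 CPM. Of 23 MHC class I genes, H2-Q6, H2-M2 and Psme2 were higher (median 0.36); the reads of H2-Q6 may be shared with other Q-region genes. H2-K1 was at 2001 to 2899.6 CPM against 1093 to 1436 CPM in cDC2-like cells and B2m at 2569.6 to 3881 against 1249 to 1961 CPM. H2-D1 was at 1238 to 1802 against 682 to 1092 CPM and Psme1 at 785 to 1159 against 539 to 809 CPM. Of 20 uptake receptor genes, none was higher and Clec9a, Cd36 and Clec10a were lower (median -0.69). Clec9a and Clec10a had served to gate the other DCs. Clec10a, a galactose-type lectin of cDC2, was at 0 to 8.92 CPM against 11.8 to 30.7 CPM in cDC2-like cells. Ly75 (DEC-205), a cDC1 uptake receptor, was at 52.4 to 147 CPM against 43.7 to 65.4 CPM in cDC1-like and 1.91 to 12.8 CPM in cDC2-like cells. Clec12a was at 8.62 to 70.8 CPM against 24.6 to 40.7 CPM in cDC2-like cells and Cd300a at 7.26 to 57.7 against 132 to 222 CPM. Of 17 Toll-like receptor and adaptor genes, Tlr3, also a gene of the gates, and Tlr7 were lower and none was higher (median 0.03). Tlr7 was at 0 to 8.62 CPM against 27.1 to 37.4 CPM in cDC2-like cells. The most abundant genes of that list were Unc93b1, which carries Toll-like receptors to endosomes, at 137 to 204 against 214 to 278 CPM, Irak1 at 86.2 to 128 against 80.6 to 131 CPM and Tlr11 at 5.95 to 27.4 against 4.92 to 12.9 CPM.

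Of 39 type I interferon genes 1, Bst2, was lower and none higher (median -0.38), and of 23 interferon-gamma genes Gbp2, Gbp5, Irf1 and Cd274 were higher (median -0.09). Among all genes, 1.9% were lower and 2.26% higher in all libraries. Gbp2, a guanylate-binding protein of host defence, was at 107 to 309 CPM against 4.79 to 50.1 CPM in cDC2-like cells. Among abundant interferon genes, Ifi27l2a was at 66.6 to 493 against 329 to 1143 CPM, Trim30a at 43.1 to 142 against 79.4 to 167 CPM, the class II transactivator gene Ciita at 309 to 475 against 538 to 745 CPM and Serpina3g at 117 to 207 against 137 to 201 CPM in cDC2-like cells. Of 12 genes of the LXR and cholesterol efflux list, Apol7c alone was higher. Apol7c, an apolipoprotein L gene, was at 564 CPM in the live allogeneic, 1365 in the live isogeneic, 2017 in the apoptotic allogeneic, 1423 in the apoptotic isogeneic and 1844 in the saline library, against 283 to 979.7 CPM in cDC1-like and 18.2 to 83.0 CPM in cDC2-like cells. Npc2 was at 328 to 587 against 229 to 266 CPM, Npc1 at 17.2 to 41.6 against 51.4 to 60.0 CPM and Apoe at 25.9 to 1743 against 75.7 to 139.9 CPM in cDC2-like cells. Of 19 cholesterol synthesis genes Idi1, an isomerase, was higher; Hmgcs1, the synthase of the pathway's early steps, was at 57.7 to 137 against 31.5 to 43.1 CPM, Srebf2 at 60.4 to 153 against 116 to 126 CPM and Fdps at 44.6 to 94.4 against 22.2 to 40.3 CPM. None of 28 cell cycle genes (median -0.75) and none of 28 dissociation and heat stress genes (median -0.16) passed 2-fold in all libraries. Of the abundant genes of these lists, H2afz was at 1243 to 2036 against 1022 to 1799 CPM, Stmn1 at 0 to 475 against 257 to 684 CPM, Hspa8 at 871 to 1237 against 791 to 1303 CPM, Hsp90ab1 at 1061 to 1769.6 against 1392 to 1809 CPM and Btg1 at 1009 to 2381 against 648 to 1014 CPM in cDC2-like cells. Of the marker lists, 18 of 19 mature DC markers (13 of the 14 that the rule did not use) were higher, all 10 cDC1 markers and 8 of 10 pDC markers lower, and 2 of 10 cDC2 markers, Clec10a and Cd7, lower. The other DCs were gated on some of the cDC1, cDC2 and pDC markers, so these calls are partly set by the gates. The pDC markers summed to 189 to 622 CPM in mature against 228 to 355 CPM in cDC2-like cells. Of the markers of other cell types, Tcf7 (T cells) and Vcam1 (red pulp macrophages) were higher, and Ly6c2, Plac8, Xbp1 and Pecam1 lower. The 11 T cell markers summed to 194 to 356 CPM in mature cells. They summed to 22.6 to 37.4 CPM in cDC2-like, 1.69 to 9.87 CPM in cDC1-like and 291 to 480 CPM in pDC-like cells. Of those the rule did not use, Trbc1 and Lat were at 0 in mature cells of every library and Il7r and Tcf7 in none. Trbc2, Trac, Lck and Cd28 were at 0 in some libraries. The 10 B cell markers summed to 31.5 to 138 CPM in mature against 79.6 to 128 CPM in cDC2-like cells. The remaining lists of B cell, natural killer cell, neutrophil and erythroid markers had no gene past 2-fold in all libraries.

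Lineage genes were compared within each mature cell, with 20 cDC1 and 20 cDC2 lineage genes that share no gene with the rule. Of the 215 cells, 193 (89.8%) had more cDC2 than cDC1 lineage UMIs, 17 (7.91%, 4.67 to 12.4%) had more cDC1 lineage UMIs and 5 had equal numbers. The same count placed 98.8% of cDC2-like cells with cDC2 and 98.3% of cDC1-like cells with cDC1, though those gates share genes with the lists. By library, 2 of 27 live allogeneic, 4 of 46 live isogeneic, 4 of 47 apoptotic allogeneic, 2 of 34 apoptotic isogeneic and 5 of 61 saline mature cells leaned to cDC1. The split leans on S100a4, which was at 2021 to 2522 CPM in mature cells, 2034 to 2809.9 CPM in cDC2-like and 20.2 to 46.5 CPM in cDC1-like cells. Without S100a4, 21.4% leaned to cDC1 and 67.4% to cDC2. Over the 20 cDC1 genes 16 were at least 2-fold lower than in all other DCs and none higher. Some of these genes had served to gate the other DCs, and against cDC2-like cells alone the cDC1 list had a median of 0.22. Of 19 measured cDC2 genes, 2 were lower than in all other DCs and none higher.

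Il12b, which encodes the p40 chain of interleukin-12 and interleukin-23, had 143 UMIs in 15 mature cells. By library these were 0 cells in the live allogeneic, 6 in the live isogeneic, 3 in the apoptotic allogeneic, 2 in the apoptotic isogeneic and 4 in the saline library; a count of 0 of 27 cells allows, at the limit of 3 counts, a share of cells with a UMI of up to 11.1%. The erythroid-rich apoptotic allogeneic cell alone held 78 of the UMIs. Of the 17 cells that leaned to cDC1, 8 (47.1%) had a UMI of Il12b, and of the 193 that leaned to cDC2, 7 (3.6%).

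The comparison of the leaning groups was made on UMIs summed over cells, without the myeloid-led and erythroid-rich cells (16 against 182 cells). Its intervals cover counting error only. The rule used Ccr7, Fscn1 and Il4i1, so their folds describe cells already chosen on these genes. Serpinb6b, a serine protease inhibitor gene, was 8.47-fold (6.50 to 11) higher in cDC1-leaning than in cDC2-leaning mature cells, at 1048 and 124 CPM. Il12b was 5.09-fold (2.90 to 8.69) higher, with 22 UMIs in cDC1-leaning and 43 in cDC2-leaning cells. Pvr (CD155), a ligand of TIGIT and DNAM-1, was 5.90-fold (3.16 to 10.7) higher, Serpinb9 4.51-fold (3.33 to 6.04), Il15ra 3.98-fold (1.98 to 7.58), Ly75 3.95-fold (2.59 to 5.91) and Tnfrsf4 3.65-fold (2.59 to 5.09). Ccr7 was 1.97-fold (1.64 to 2.35) and Ccl5 1.93-fold (1.76 to 2.11) higher. The rule gene Fscn1 was at 1.18-fold (0.983 to 1.40), within counting error. In the other direction, Gpr183 was at 76.9 CPM in cDC1-leaning and 644 CPM in cDC2-leaning cells, or 0.119-fold (0.0513 to 0.237). The Fc receptor chain gene Fcer1g was at 0.208-fold (0.123 to 0.331), H2-M2 at 0.328-fold (0.217 to 0.478), Relb at 0.551-fold (0.424 to 0.705), Il4i1 at 0.616-fold (0.479 to 0.782) and Icosl at 0.628-fold (0.438 to 0.875). When S100a4 was left out of the lineage count (45 against 135 cells), Serpinb6b stayed at 6.24-fold and Serpinb9 at 3.88-fold, but Il12b was at 1.28-fold (0.723 to 2.2) and Gpr183 at 0.902-fold. The direction of Il4i1 turned, to 1.22-fold (1.07 to 1.38), and Fscn1 was at 1.63-fold (1.46 to 1.83). The other genes named here kept their direction, with Pvr at 2.32-fold (1.28 to 4.22), Ly75 at 1.75-fold (1.20 to 2.55), Ccl5 at 1.17-fold (1.09 to 1.26), Fcer1g at 0.615-fold (0.515 to 0.730) and H2-M2 at 0.650-fold (0.546 to 0.771).

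**Figure D4:**
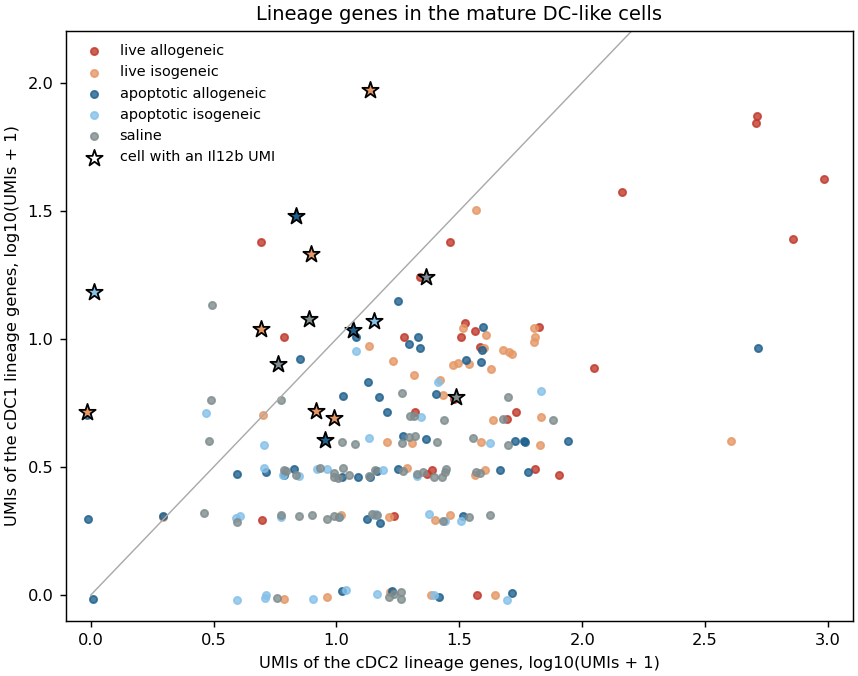
UMIs of the cDC1 lineage genes (y axis) against those of the cDC2 lineage genes (x axis) in each of the 215 mature DC-like cells, both as log10(UMIs + 1) with a small random shift, coloured by library. Stars are the 15 cells with a UMI of Il12b, 8 of them above the line of equal UMIs.

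Between libraries, the first question of the design is how an infusion of live allogeneic cells differs from one of live isogeneic cells. Interferon-response and cell cycle genes were higher in the live allogeneic mature cells. NF-kappaB genes were lower, but without the 4 myeloid-led cells, which were picked partly on such genes, their median was under 1.5-fold. Of 2015 genes with at least 50 UMIs in the pair, 398 (19.8%) were at least 1.5-fold higher and 300 (14.9%) at least 1.5-fold lower on log2(CPM + 10); without the myeloid-led cells these were 15.4% and 10.6% of 1492 genes. With ribosomal, mitochondrial, haemoglobin and immunoglobulin genes, Gm42418, AY036118 and Lars2 out of the total, the split was 336 higher and 377 lower. There is 1 library on each side, so these are differences between 27 and 46 cells and carry no test. Of 14 type I interferon genes measured, 8 were higher and none lower, with a median log2 ratio of 0.62, against 0.05 over all genes. Without the myeloid-led cells 8 of 10 were higher (median 0.91). In the other DCs of the same libraries the median of this list was 0.76. Isg15, a ubiquitin-like interferon product whose response elements are shown with the promoters, was at 443 CPM in the live allogeneic, 137 in the live isogeneic, 86.2 in the apoptotic allogeneic, 25.9 in the apoptotic isogeneic and 76.2 in the saline library in mature cells. The live allogeneic library was the highest, and it stayed so without the myeloid-led cells (396 against 79.8 CPM in the live isogeneic library). Zbp1, a sensor of Z-form nucleic acids, was at 197 CPM in the live allogeneic against 11.9 CPM in the live isogeneic library (16.5-fold, 6.19 to 62.2). Ly6a (Sca-1), an interferon-inducible surface protein gene, was at 159.9 CPM in the live allogeneic against 17.8 CPM in the live isogeneic library (8.96-fold, 3.89 to 25.4). Their log2 ratios of 3.24 and 2.61 became, without the myeloid-led cells, 3.61 and 2.91.

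Of 11 interferon-gamma genes 6 were higher and none lower (median 0.71). Without the myeloid-led cells 4 of 8 were higher (median 0.61). In the other DCs the median of the list was 0.38. Cxcl9, a chemokine that draws Cxcr3-positive T cells, was at 1311 CPM in the live allogeneic, 68.4 in the live isogeneic, 58.7 in the apoptotic allogeneic, 34.5 in the apoptotic isogeneic and 14.5 in the saline library. The live allogeneic level was 19.2-fold (12.6 to 30.5) that of live isogeneic mature cells, but 1 cell held 44.4% of its 500 UMIs. Without the myeloid-led cells Cxcl9 was at 589 CPM in the live allogeneic against 36.6 CPM in the live isogeneic library, while in the other DCs the log2 ratio was 0.29. Cxcl10, its partner ligand, was at 385 CPM in the live allogeneic against 98.1 CPM in the live isogeneic library, and 1 cell held 70.7% of its live allogeneic UMIs; without the myeloid-led cells it was at 161 CPM in the live allogeneic against 3.33 CPM in the live isogeneic library. Gbp2 was at 309 CPM in the live allogeneic against 107 CPM in the live isogeneic library (268 against 113 CPM without those cells). The immunoproteasome genes Psmb8, Psmb9 and Psmb10 were the 3 of 21 MHC class I genes that were higher (median 0.30); Psmb8 was at 1054 CPM in the live allogeneic against 589 CPM in the live isogeneic library (1121 against 612 CPM without those cells). MHC class II genes were at a median of -0.05, with H2-DMb1 higher and H2-Eb2 lower of 13.

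To set shares of cells at equal depth, each mature, cDC2-like, cDC1-like and pDC-like cell with at least 2000 UMIs was thinned to that number. Shallower cells were left out (1 mature cell in each of the live allogeneic, live isogeneic and apoptotic allogeneic, 3 in the apoptotic isogeneic and 4 in the saline library). Type I interferon genes then gave at least 5 UMIs in 50% of live allogeneic mature cells (29.9 to 70.1%, 13 of 26), 22.2% of live isogeneic (10 of 45), 23.9% of apoptotic allogeneic, 6.45% of apoptotic isogeneic and 29.8% of saline mature cells. In cDC2-like cells the shares were 80.6% in the live allogeneic, 40.5% in the live isogeneic, 31.5% in the apoptotic allogeneic, 38.4% in the apoptotic isogeneic and 35% in the saline library. In every library a smaller share of mature than of cDC2-like cells passed this level. In cDC1-like cells the shares were 33.3% in the live allogeneic, 12.3% in the live isogeneic, 13.1% in the apoptotic allogeneic, 11.2% in the apoptotic isogeneic and 19.4% in the saline library. These were below the shares of mature cells in every library but the apoptotic isogeneic one. In pDC-like cells the shares were 85.3 to 92.4%. Unthinned, 96.3% of live allogeneic and 84.8% of live isogeneic mature cells had at least 5 UMIs of these genes.

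Of 11 cell cycle genes, 9 were higher in live allogeneic than in live isogeneic mature cells (median 1.40; without the myeloid-led cells 8 of 10, median 1.46). Top2a, which unwinds DNA for division, was at 307 CPM in the live allogeneic, 59.5 in the live isogeneic, 19.6 in the apoptotic allogeneic, 17.2 in the apoptotic isogeneic and 174 in the saline library, and Mki67, a marker of cycling cells, at 191 CPM in the live allogeneic, 50.6 in the live isogeneic, 23.5 in the apoptotic allogeneic, 25.9 in the apoptotic isogeneic and 163 in the saline library. The live allogeneic and saline libraries were high and both apoptotic libraries low, and without the myeloid-led cells the live allogeneic levels were 424 CPM for Top2a and 264 CPM for Mki67. These levels rest on few cells: 3 cells held 51.7% of the cell cycle UMIs in the live allogeneic, 40.2% in the live isogeneic and 53.2% in the saline library. After thinning, 30.8% of live allogeneic (8 of 26), 11.1% of live isogeneic, 2.17% of apoptotic allogeneic, 12.9% of apoptotic isogeneic and 14.0% of saline mature cells had at least 10 cell cycle UMIs, and 30.1% of live allogeneic against 15.1% of live isogeneic cDC2-like cells did. Within the mature cluster alone the list's median was 0.55, and with cells thinned 0.74.

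Medians of NF-kappaB and migration genes changed when the myeloid-led cells were left out. Those cells were picked for few UMIs of mature DC markers relative to myeloid markers. Genes of both lists are among the mature DC markers, so part of this change is set by the choice. Of 14 NF-kappaB genes 8 were lower and none higher (median -0.70), and without the myeloid-led cells 4 of 14 were lower (median -0.30; other DCs -0.25). Relb was at 572 CPM in the live allogeneic against 1091 CPM in the live isogeneic library, and at 824 against 1171 CPM without the myeloid-led cells. For migration genes the median was -0.37 with 6 of 17 lower, and 0.07 with 1 of 17 lower without the myeloid-led cells. With mature cluster cells only, the NF-kappaB median was -0.58 and the migration median -0.12. Of 19 dissociation and heat stress genes, 11 were lower (median -0.73). Without the myeloid-led cells 8 of 17 were lower (median -0.48). In the other DCs the median of the list was -0.45. The early-response gene Egr1 was at 23.6 CPM in the live allogeneic against 202 CPM in the live isogeneic library (0.117-fold, 0.0512 to 0.235). It had 9 live allogeneic UMIs, 77.8% of them in 1 cell. The log2 ratio of Egr1 was -2.66, and -0.56 at the highest over the alternatives. Zfp36l1, which promotes decay of mRNAs with AU-rich elements, was at 286 CPM in the live allogeneic against 1196 CPM in the live isogeneic library (0.239-fold, 0.192 to 0.296).

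The genes with the largest ratios included markers of other cells. Lyz1 was at 954 CPM in the live allogeneic against 5.95 CPM in the live isogeneic library (160.4-fold, 44.1 to 1329.8), but at 0 CPM in the live allogeneic mature cells without the myeloid-led ones. Lyz2 was at 6557 CPM in the live allogeneic against 1269.9 CPM in the live isogeneic library (5.16-fold, 4.66 to 5.73). Without those cells it was at 57.7 against 19.95 CPM. Lyz2 is 1 of the monocyte markers by which those cells were picked, so its fall without them is partly set by that choice. Reads of Lyz1 and Lyz2, a pair of near-identical genes, may be split. The cathepsin gene Ctsd was at 485 CPM in the live allogeneic against 86.2 CPM in the live isogeneic library, and its log2 ratio of 2.36 became -0.57 without them. The complement gene Cfp and the galectin gene Lgals3 had log2 ratios of 2.36 and 2.26 with those cells and 1.01 and 0.84 without them; over all alternatives Lgals3 was at 0.17 at the lowest. At the low end, Gm42418, which overlaps the ribosomal RNA repeat on chromosome 17, was at 10911 CPM in the live allogeneic against 62456 CPM in the live isogeneic library (0.175-fold, 0.169 to 0.181), and Lars2 and Gm10076 were at 0.198-fold and 0.252-fold. The same genes were lower in the other DCs (log2 -1.86, -1.94 and -1.67) as well. The rest of the low end were Bcl11a, Btg2 and Tbc1d9, at 0.132-fold, 0.225-fold and 0.234-fold. The log2 ratio of Bcl11a was -2.49, and -0.24 at the highest over the alternatives.

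Apoptotic allogeneic and apoptotic isogeneic mature cells differed in few of the listed gene groups. Of 943 genes with at least 50 UMIs, 86 (9.12%) were at least 1.5-fold higher and 65 (6.89%) lower (8.1% and 6.07% of 889 without the myeloid-led cells), with an all-gene median of 0.00; the apoptotic isogeneic cells held 115973 UMIs in all, so counting error is wide. Lima1, an actin cross-linker, was at 305 CPM in the apoptotic allogeneic against 43.1 CPM in the apoptotic isogeneic library (7.08-fold, 2.91 to 22.4). Map3k14 (NIK), the kinase that starts the non-canonical NF-kappaB pathway, was at 204 CPM in the apoptotic allogeneic against 43.1 CPM in the apoptotic isogeneic library (4.72-fold, 1.90 to 15.2). Gclc, which makes glutathione, was at 469.9 CPM in the apoptotic allogeneic against 129 CPM in the apoptotic isogeneic library (3.63-fold, 2.12 to 6.69). In the other DCs none of these 3 genes moved by as much, at log2 ratios of 0.17, -0.29 and -0.09. The ratios in mature cells rest on few cells and UMIs. In the apoptotic allogeneic library 1 cell held 38.5% of the Lima1, 19.2% of the Map3k14 and 39.2% of the Gclc UMIs. The apoptotic isogeneic mature cells had 5, 5 and 15 UMIs of these genes. Nmt1, Rrbp1, Rsrp1 and AY036118 were also among the 8 highest, at 2.37-fold to 2.57-fold. The 8 lowest were Eif5a, Pcbp1, Rgs2, Runx3, Gpx4, Wdr1, Sirpa and Mcemp1, at 0.374-fold to 0.485-fold. Sirpa, the receptor for CD47 on cDC2, was at 121 CPM in the apoptotic allogeneic against 250.1 CPM in the apoptotic isogeneic library (0.485-fold, 0.283 to 0.835).

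Lists with at least 8 genes had medians of 0.01 to 0.33 in this pair. Migration genes had a median of 0.04 (2 of 17 higher, Cacnb3 and Arhgap31), NF-kappaB genes 0.04 (2 of 13 higher, Relb and Map3k14), MHC class II genes 0.01 (none of 11) and MHC class I genes 0.14 (none of 17). Survival genes had a median of 0.33, with Serpinb9 higher and Serpinb6b lower of 8, and dissociation and heat stress genes 0.19, with 4 of 13 higher. DC transcription factors were at 0.14 (2 of 12 higher, 1 lower), interferon-gamma genes at -0.07 (1 of 5 lower) and cDC2 lineage genes at -0.16 (1 of 5 higher, 1 lower). The shorter lists gave 0.59 over 4 genes of LXR targets and cholesterol efflux (Apoe and Npc2 higher, Abcg1 lower), 0.45 over 3 chemokines (Ccl22 higher) and 0.25 over 3 costimulatory genes (Cd40 lower). Haemoglobin genes were higher by the UMIs of 1 cell, the erythroid-rich one. Fewer than 3 type I interferon genes had 50 UMIs in this pair, so the list gave no median.

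**Figure D5:**
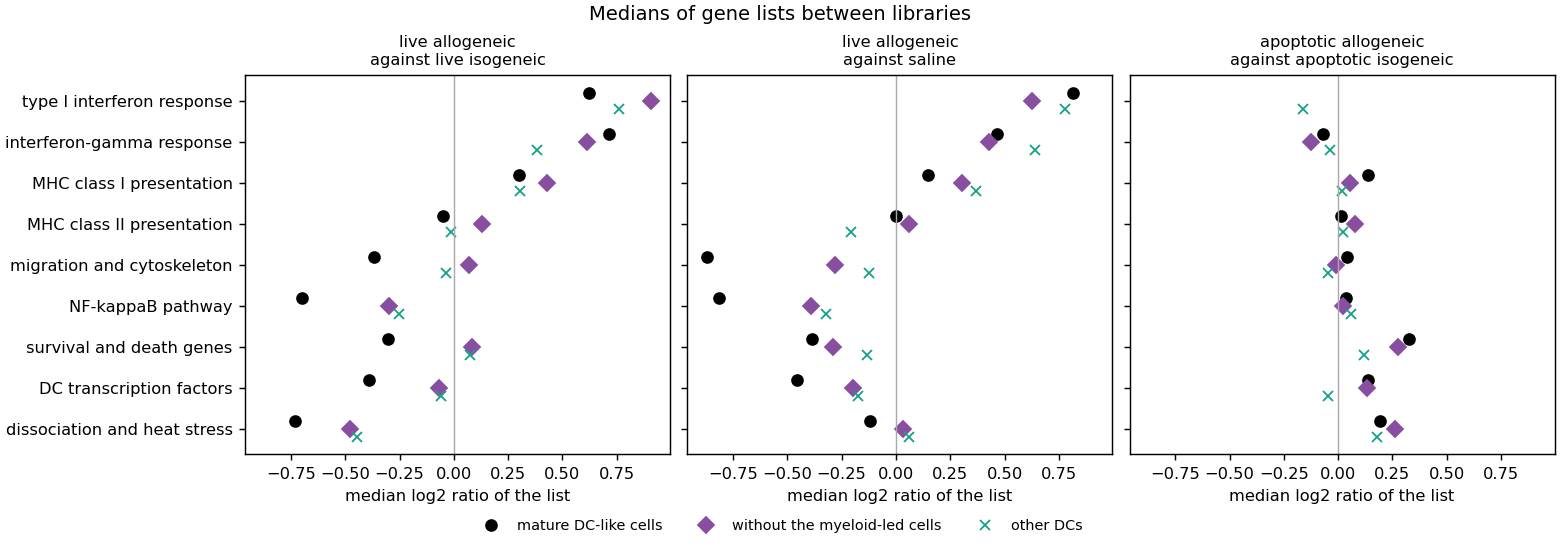
Median log2 ratio of 9 gene lists between libraries, for all mature DC-like cells (circles), the same without the myeloid-led cells (diamonds) and the other DCs of the same libraries (crosses). For NF-kappaB genes, live allogeneic against live isogeneic, the circle is at -0.70, the diamond at -0.30 and the cross at -0.25.

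Set against saline, live allogeneic mature cells had higher interferon genes, Cxcl9 and Cxcl10. The 4 comparisons with saline share the saline mature cells, so they are not independent of each other. In the live allogeneic comparison 439 of 1873 genes (23.4%) were at least 1.5-fold higher and 414 (22.1%) lower, and without the myeloid-led cells 17.5% and 17% of 1445. Type I interferon genes were at a median of 0.81 (9 of 15 higher; 0.63 with 5 of 10 without the myeloid-led cells). Cxcl9 was at 1311 CPM in the live allogeneic against 14.5 CPM in the saline library (90.3-fold, 35.0 to 333), and at 589 against 14.8 CPM without those cells. Cxcl10 was at 385 CPM in the live allogeneic against 7.26 CPM in the saline library (53.1-fold, 14.4 to 443), and at 161 against 7.38 CPM without those cells; its log2 ratio of 4.52 was 0.62 at the lowest over the alternatives. The complement factor B gene Cfb had 72 UMIs in live allogeneic and 0 in saline mature cells, Ly6a 61 and 0, and Gm15056 58 and 0. Without the myeloid-led cells they were at 78.3 CPM, 189.5 CPM and 16.5 CPM in the live allogeneic and at 0 in the saline library, and under 1 alternative the ratio of Gm15056 was 0. Migration genes were lower (12 of 18, median -0.87), and without the myeloid-led cells 4 of 17 were (median -0.28). With mature cluster cells only, the migration median was -0.21 and the NF-kappaB median -0.74. Of the NF-kappaB genes 10 of 16 were lower (median -0.82), and 4 of 15 without the myeloid-led cells (median -0.39). Genes lower in both versions included Ddhd1, a phospholipase gene, at 94.4 CPM in the live allogeneic against 592 CPM in the saline library (0.160-fold, 0.108 to 0.230), and Nfat5, at 186 CPM in the live allogeneic against 929 CPM in the saline library (0.20-fold, 0.152 to 0.262). Asprv1, Ryr3, Trim7, Gclc, Crispld2 and Ogt were the other 6 of the 8 lowest, at 0.149-fold to 0.190-fold, and each kept a log2 ratio of -1.66 or lower without the myeloid-led cells. The remaining high genes, Lyz1, Lyz2 and Ctsd, had log2 ratios of 6.14, 4.78 and 3.96 with those cells and 0.00, 2.31 and -0.52 without them.

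Live isogeneic mature cells differed from saline ones by 174 of 1719 genes higher (10.1%) and 206 lower (12%; without the myeloid-led cells 8.34% and 11.5% of 1594). With the ribosomal and similar genes out of the total these were 260 and 136, and the all-gene median moved to 0.09, against -0.04 with all genes in the total, a shift of 0.13. All 3 measured genes of the IL-4 axis, Il4i1, Ccl22 and Tnfrsf4, were lower (median -1.06). The rule used Il4i1 and Ccl22, and 1 cell held 60% of the live isogeneic Ccl22 UMIs. Tnfrsf4, which the rule did not use, was at 101 CPM in the live isogeneic against 221 CPM in the saline library. In live allogeneic against saline cells the median of this list was -1.26, and -0.69 without the myeloid-led cells. The live isogeneic median over dissociation and heat stress genes was 0.52 (8 of 18 higher, 1 lower). Type I interferon genes were at a median of 0.04, with 3 of 11 higher. AY036118, Gm42418 and Lars2 were 4.88-fold, 4.40-fold and 3.68-fold higher, and Gm42418 took 62456 CPM of the live isogeneic against 14193 CPM of the saline mature cells' UMIs. Ifngr1, a chain of the interferon-gamma receptor, was at 134 CPM in the live isogeneic against 32.7 CPM in the saline library (4.10-fold, 1.98 to 9.53). Bst2, an antiviral membrane protein gene also among the pDC markers, was at 155 CPM in the live isogeneic against 32.7 CPM in the saline library (4.73-fold, 2.31 to 10.9). The log2 ratio of Bst2 was 1.95, and 0.51 at the lowest over the alternatives. Tcf4, Plac8 and Lyz2 were the other 3 high genes, and 1 cell held 53.3%, 48.5% and 87.6% of their live isogeneic UMIs. Asprv1 was at 74.3 CPM in the live isogeneic against 370.2 CPM in the saline library (0.201-fold, 0.124 to 0.314) and Ryr3, a calcium release channel gene, at 83.3 CPM in the live isogeneic against 359 CPM in the saline library (0.232-fold, 0.147 to 0.356). Fam53b, Rasa2, Mki67, Tmcc3, March7 and Top2a were the other 6 low genes, at 0.279-fold to 0.350-fold.

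Set against saline, apoptotic allogeneic mature cells had lower cell cycle genes, by a median that was smaller within the mature cluster. In the apoptotic allogeneic comparison 69 of 1421 genes were higher (4.86%) and 134 lower (9.43%; without the myeloid-led cells 4.84% and 9.68% of 1384), with an all-gene median of -0.08. The mitochondrial import and respiratory genes Romo1, Tomm7 and Pet100 were at 3.32-fold, 2.96-fold and 2.90-fold, Irf8 was at 176 CPM in the apoptotic allogeneic against 72.6 CPM in the saline library (2.43-fold, 1.40 to 4.34), and Hivep1, a zinc finger factor that binds NF-kappaB sites, at 251 CPM in the apoptotic allogeneic against 116 CPM in the saline library (2.16-fold, 1.39 to 3.41). AY036118, Lima1 and Tmem258 completed the 8 highest. Of 5 cell cycle genes 4 were lower (median -1.95; -0.38 with mature cluster cells only), Mki67 at 23.5 CPM in the apoptotic allogeneic against 163 CPM in the saline library (0.144-fold, 0.0502 to 0.338) and Top2a at 19.6 CPM in the apoptotic allogeneic against 174 CPM in the saline library (0.112-fold, 0.0349 to 0.281). In saline 1 cell held 46.7% and 52.1% of the UMIs of these genes, and in the other DCs the log2 ratios were 0.14 and 0.47. Tubb2b, Hmgb2, Hist1h2ae, Tm4sf5, Tubb4b and Smc6 were the other 6 low genes, at 0.138-fold to 0.342-fold; with mature cluster cells only Hist1h2ae was higher, at a log2 ratio of 0.91. Migration (median -0.13), NF-kappaB (0.02) and costimulatory genes (0.07) lay near the all-gene median.

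In the apoptotic isogeneic comparison 54 of 1040 genes were higher (5.19%) and 118 lower (11.3%; without the myeloid-led cells 5.26% and 10.8% of 1007), with an all-gene median of -0.07. The hyaluronan receptor gene Cd44 was at 77.6 CPM in the apoptotic isogeneic against 247 CPM in the saline library (0.314-fold, 0.138 to 0.633). In the other DCs its log2 ratio was -0.13. Hist1h2ae, Top2a, Hmgb2, Gm10076, Rassf2 and Tm4sf5 were also among the 8 lowest, at 0.0834-fold to 0.351-fold. Tomm7, Eif5a, Rab8b, Uqcr10, Sirpa, Thap2, Serpinb6b and Ifitm3 were the 8 highest, at 2.01-fold to 2.46-fold. NF-kappaB genes had a median of 0.01, migration genes -0.21 and dissociation and heat stress genes -0.26. The cell cycle median was -1.77, but -1.05 without the myeloid-led cells and -0.01 with mature cluster cells only. The median of type I interferon genes was -0.61, and -0.62 without the myeloid-led cells. Isg15 was at 25.9 CPM (3 UMIs) in apoptotic isogeneic against 76.2 CPM in saline mature cells.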

How the data were processed

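Single cell RNA sequencing (10x 3′ v3.1) gave 5 libraries, 1 per group. Per the submitters' processing notes, reads were processed with Cell Ranger 4.0 on mm10; the deposited matrices hold raw UMI counts per gene and barcode. Of them, 4 list all 6794880 possible barcodes and the apoptotic allogeneic one 2491, so filters were applied here: 1000 or more UMIs, 500 or more genes and a mitochondrial share of up to 10%. Other DCs were gated on UMIs of their markers (pDC-like at least 3, cDC1-like and cDC2-like at least 2, with the larger sum deciding). Counts were summed over cells per library, scaled to a common total (CPM) and compared on log2(CPM + 10) for genes with at least 50 UMIs, with thresholds of 2-fold in all 5 libraries against other DCs and 1.5-fold between libraries. Fold intervals are exact conditional Poisson intervals and shares have Clopper-Pearson intervals, all at 95%. With 1 library per group there is no replicate, so no edgeR-type count test was run and no p-value is given. Medians and depth per cell stand beside the shares.

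The members and gene lists were chosen with earlier results of these data known. The genes named are, against the other DCs, the 15 highest and 10 lowest median ratios among genes called in all libraries with a UMI in at least 20% of cells; between libraries, the 8 highest and 8 lowest ratios with a UMI in at least 10% of mature cells of 1 library; and from each list the 4 genes with the most UMIs. Some of these genes are not reported here. The ranking left out genes of the rule, sex-linked, ribosomal protein, mitochondrial, haemoglobin, T cell receptor and immunoglobulin genes, and genes whose CPM was below 0.1 of that in B cells, T cells, erythroid cells or macrophages. Marker lists of other cell types are given by sums and calls. List genes named beyond this rule, the cells called myeloid-led and erythroid-rich, and the comparison of leaning groups were chosen after their values were seen. Clustering used scanpy 1.11.5 (2000 variable genes, 30 components, 15 neighbours, resolution 1), and doublets were called with Scrublet but kept. The comparison was tested on simulated data. Positions are from GENCODE on GRCm38. Tools were Python 3.11.15, numpy 2.4.6, scipy 1.17.1, pandas 2.3.3 and matplotlib 3.10.9.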

Additional observations from a re-analysis of the deposited data

Results flagged for a closer look

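For 3 gene lists the median log2 ratio in mature DC-like cells had opposite signs in the live pair (live allogeneic against live isogeneic) and the apoptotic pair (apoptotic allogeneic against apoptotic isogeneic), with at least 1 of the medians past 1.5-fold. The difference between the pairs was not tested, since each library is 1 sample. NF-kappaB pathway genes had a median of -0.70 over 14 genes in the live pair and 0.04 over 13 genes in the apoptotic pair. Without the myeloid-led cells, which were picked partly on genes of this list, the live median was -0.30, under 1.5-fold. With mature cluster cells only, the live median was -0.58, also under 1.5-fold, and the apoptotic median -0.08. Interferon-gamma response genes had 0.71 over 11 genes in the live pair and -0.07 over 5 genes in the apoptotic pair, and 0.61 in the live pair without the myeloid-led cells. Dissociation and heat stress genes had -0.73 over 19 genes in the live pair and 0.19 over 13 genes in the apoptotic pair, and -0.48 in the live pair without the myeloid-led cells.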

How the results depend on the processing

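Of 121 ratios of named genes, 104 kept their sign under every alternative run. Some alternatives, such as lower UMI cut-offs, cannot change the ratio of a gene between libraries. Of the gene counts and shares of cells under the alternatives, 204 stayed within the range set for them and 73 moved out of it. Of the gene ratios and list medians, 2711 stayed, 413 moved and 27 reversed. With a stricter sum of at least 8 UMIs, 256 genes were higher in the live allogeneic than in the live isogeneic cells; the chemokine median, live allogeneic against saline, reversed to -0.41, Hist1h2ae, apoptotic allogeneic against saline, to 0.62, and Ifitm3 and the cell cycle median, apoptotic isogeneic against saline, to -0.33 and 0.01 (0.00799). At most 5% mitochondrial UMIs gave a saline share of 3.02% of filtered cells. With cells thinned to 2000 UMIs, the genes higher and lower were 53 and 40 for live allogeneic against live isogeneic, 29 and 22 for the apoptotic pair, and against saline 73 and 91 for live allogeneic, 54 and 63 for live isogeneic, 42 and 36 for apoptotic allogeneic and 27 and 39 for apoptotic isogeneic; fewer genes then hold 50 UMIs. Mki67, live isogeneic against saline, reversed to 0.31. The thinned shares of filtered cells were 0.990% in the live allogeneic, 0.499% in the live isogeneic, 1.5% in the apoptotic allogeneic and 1.42% in the saline library, and of DCs 6.83%, 3.55%, 3.11% and 5.50% in the live allogeneic, live isogeneic, apoptotic isogeneic and saline library. Without ribosomal and similar genes in the total, 136 genes were lower in live isogeneic than in saline cells. With a pseudocount of 1 CPM 543 genes were lower than in the other DCs. With at least 20 UMIs, which tests more genes, the genes higher and lower were 874 and 700 for live allogeneic against live isogeneic, 332 and 307 for the apoptotic pair, and against saline 986 and 866 for live allogeneic, 530 and 569 for live isogeneic, 245 and 464 for apoptotic allogeneic and 224 and 459 for apoptotic isogeneic. With at least 1 UMI they were 2271 and 1780, 2122 and 2405, 2677 and 2070, 1902 and 1784, 1312 and 2110, and 1977 and 2600 in the same order of comparisons; the chemokine median, live allogeneic against saline, was then -0.45 and the regulatory median, live isogeneic against saline, 0.02 (0.0187). Against cDC2-like cells alone Xcr1 was at 0.24, Cadm1 at 0.22, Ly6a at 0.27, Ifi205 at 0.23, P2ry14 at 0.07 (0.0702) and the cDC1 lineage median at 0.22; against cDC1-like cells alone 405 genes were higher. Leaving out each library gave 247 to 328 genes higher and 219 to 296 lower than in the other DCs; fewer libraries then have to pass.

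Chosen after seeing the data, leaving out the myeloid-led cells gave 230 genes higher and 158 lower for live allogeneic against live isogeneic, with Lyz1 at -0.41 and Ctsd at -0.57, and 253 and 245 against saline, with Ctsd at -0.52. With mature cluster cells only, also chosen after seeing the data, the live allogeneic and live isogeneic shares were 1.35% and 0.896% of filtered cells and 7.34% and 4.98% of DCs, and 428 genes were lower than in the other DCs. Live allogeneic against live isogeneic then gave 155 and 127 genes, with Ctsd at -0.38. Live allogeneic against saline gave 194 and 223, with Lyz1 at -0.50, Lyz2 at -1.82, Ctsd at -0.48 and the chemokine median at -0.34. Live isogeneic against saline gave 107 genes higher, Lyz2 at -3.49, Tcf4 at -1.25, Top2a at 0.56 and the cell cycle median at 0.03 (0.0267). Hist1h2ae was at 0.91 in apoptotic allogeneic and Ifitm3 at -0.26 in apoptotic isogeneic against saline cells. With all cells of the mature cluster counted, also chosen after seeing the data, the live isogeneic, apoptotic allogeneic, apoptotic isogeneic and saline shares were 12.4%, 12.8%, 11.6% and 13.6% of the cells of DC clusters and 2.69%, 3.92%, 1.44% and 4.17% of filtered cells. Without S100a4, also chosen after seeing the data, 21.4% of mature cells leaned to cDC1 and 67.4% to cDC2. Where no reason is given, the cause was not tested. No paired analysis was possible because each group has 1 library and no test was made. The 27 to 61 mature cells per library limit every comparison between libraries.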

Other observations

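Tcf7, which encodes TCF-1, a factor best known from T cells, was the T cell marker higher in mature DC-like cells than in the other DCs of every library. It was at 99.6 CPM in the live allogeneic, 196 in the live isogeneic, 180.1 in the apoptotic allogeneic, 147 in the apoptotic isogeneic and 236 in the saline library, against 7.09 to 21.4 CPM in cDC2-like cells. The mature cells had a UMI of it in 47.9%, against 6.10% of cDC2-like and 66.7% of T cells. Of the other T cell markers outside the rule, Trbc1 and Lat were at 0 in every library. Trbc2, Trac, Lck and Cd28 were at 0 in some libraries and Il7r in none. Among mature cells Tcf7 was at 76.9 CPM in those that leaned to cDC1 and 216 CPM in those that leaned to cDC2 (0.357-fold, 0.152 to 0.715). With S100a4 out of the lineage count it was at 154 CPM in cDC1-leaning and 222 CPM in cDC2-leaning cells (0.694-fold, 0.494 to 0.961).

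Vcam1, an adhesion molecule of red pulp macrophages, was at 225 CPM in the live allogeneic, 167 in the live isogeneic, 129 in the apoptotic allogeneic, 60.4 in the apoptotic isogeneic and 65.3 in the saline library in mature cells, against 2.95 to 7.09 CPM in cDC2-like cells. Without the myeloid-led cells it was at 24.7 CPM in the live allogeneic, 69.8 in the live isogeneic, 114 in the apoptotic allogeneic, 66.8 in the apoptotic isogeneic and 66.4 in the saline library. The other red pulp macrophage markers summed with it to 45.3 to 184 CPM without those cells; their part in the level of Vcam1 was not tested.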
